A study of Homo sapiens with 6 samples.

Results

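The genes described here encode 9 secreted proteins of the extracellular matrix: the thrombospondin THBS1, the tenascin TNC, the CCN proteins CCN1 and CCN2, the latent TGF-beta binding protein LTBP2, fibronectin (FN1), SPARC, TGFBI and lumican (LUM). They were measured in AsPC-1, a line of human pancreatic adenocarcinoma cells, in 3 groups of 2 libraries. HMOX1si1 and HMOX1si2 cells had received 1 or the other of 2 siRNAs against HMOX1, and siControl cells a negative control siRNA. The product of HMOX1, heme oxygenase-1, is the stress-induced enzyme of heme breakdown, and the study asks how it acts on the growth of pancreatic cancer cells. All groups were transfected with the same reagent, and the labels name no other cells in the cultures, so the line stands without the fibroblasts, vessels and immune cells of a tumour. All 9 genes are among the 20263 genes of the deposited table, and all 9 are among the 13769 that passed the filter on low counts, FN1 and SPARC with counts of only 7 to 30 in a library. The genes were chosen by hand with their changes between each siRNA and siControl already known, so their differences from siControl are given as a description, with no test. The difference between the siRNAs is one of these changes minus the other, so it too is a description.

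Matricellular proteins such as thrombospondins, tenascins, CCN proteins and SPARC are secreted into the matrix, where they bind receptors and growth factors rather than bear load. TGF-beta is secreted in a latent form that is tethered to the matrix, and integrins, proteases and THBS1 are known to release it. In pancreatic tumours most of this matrix is laid down by stellate cells and fibroblasts of the stroma, but carcinoma cells also make some of it.

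THBS1 (ENSG00000137801) lies at chr15:39581079-39599466 on the plus strand of GRCh38 in GENCODE 29, TNC (ENSG00000041982) at chr9:115019578-115118257 on the minus strand and LTBP2 (ENSG00000119681) at chr14:74498170-74612378 on the minus strand. CCN1 (ENSG00000142871) lies at chr1:85580761-85583962 on the plus strand and CCN2 (ENSG00000118523) at chr6:131948176-131951373 on the minus strand. FN1 (ENSG00000115414) lies at chr2:215360440-215436172 on the minus strand, SPARC (ENSG00000113140) at chr5:151661096-151687165 on the minus strand, TGFBI (ENSG00000120708) at chr5:136028895-136063818 on the plus strand and LUM (ENSG00000139329) at chr12:91102629-91111831 on the minus strand. In the deposited table THBS1 shares 448 exonic bases, 4.89% of its exons, with FSIP1 on the opposite strand, and TNC shares 129 bases, 1.34%, with DELEC1. FSIP1 held 4 to 19 counts in each library and DELEC1 none. The other 7 genes share no exonic base with another gene of the table. Whether strand was used in counting is not given in the sources used here, so reads from antisense transcripts cannot be told apart.

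RefSeq promoters (GRCh38.p14, 250 bases before to 50 bases after the start) were matched for 7 of the 9 genes, not for CCN1 and LUM. Those of THBS1, TNC and LTBP2 are shown because these genes were higher with both siRNAs, and that of CCN2, a standard target gene of YAP and TEAD factors, because it held the most copies of the TEAD word. They are the plus strand of chr15:39580829-39581128 (THBS1) and the minus strand of chr9:115118108-115118407 (TNC), chr14:74612188-74612487 (LTBP2) and chr6:131951323-131951622 (CCN2). Capitals mark the words found, which are GGAATG for TEAD factors in THBS1 and CCN2 and, in TNC, the reverse complement of CAGACA, a repeat bound by SMAD proteins.
THBS1: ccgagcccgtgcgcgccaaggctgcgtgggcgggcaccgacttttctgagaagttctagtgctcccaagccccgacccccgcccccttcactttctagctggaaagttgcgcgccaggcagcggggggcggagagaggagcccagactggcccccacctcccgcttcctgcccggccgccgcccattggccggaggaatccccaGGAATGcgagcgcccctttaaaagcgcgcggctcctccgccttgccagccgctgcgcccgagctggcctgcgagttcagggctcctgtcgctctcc
TNC: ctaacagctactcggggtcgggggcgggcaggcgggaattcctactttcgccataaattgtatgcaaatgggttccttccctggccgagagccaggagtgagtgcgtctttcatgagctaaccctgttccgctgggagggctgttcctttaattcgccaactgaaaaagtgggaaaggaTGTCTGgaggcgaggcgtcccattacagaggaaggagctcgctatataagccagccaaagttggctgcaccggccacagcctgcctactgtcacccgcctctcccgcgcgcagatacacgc
LTBP2: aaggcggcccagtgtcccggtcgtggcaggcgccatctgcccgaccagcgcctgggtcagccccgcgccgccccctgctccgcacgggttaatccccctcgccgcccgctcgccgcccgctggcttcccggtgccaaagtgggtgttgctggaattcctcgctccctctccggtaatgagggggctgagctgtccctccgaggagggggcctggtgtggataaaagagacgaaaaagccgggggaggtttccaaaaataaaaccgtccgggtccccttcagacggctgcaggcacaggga
CCN2: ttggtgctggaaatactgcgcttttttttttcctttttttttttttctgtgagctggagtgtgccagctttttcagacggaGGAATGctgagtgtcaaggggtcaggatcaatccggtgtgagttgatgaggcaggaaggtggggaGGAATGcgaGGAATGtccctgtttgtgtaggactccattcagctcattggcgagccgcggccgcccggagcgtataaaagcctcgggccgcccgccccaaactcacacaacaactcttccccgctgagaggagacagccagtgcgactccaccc

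The TEAD word started at -46 relative to the start in THBS1, at -169, -104 and -95 in CCN2, and at -17 on the other strand in SPARC. The SMAD repeat was found once, in TNC at -71. Neither word, nor the AP-1 site TGANTCA, the SMAD palindrome GTCTAGAC or the CArG box of the serum response factor, was found in the windows of LTBP2, FN1 or TGFBI, and these last sites were in none of the 7. Words were searched on both strands, and none of the matches overlapped. Of 35116 RefSeq promoters of the same length, 14% held GGAATG, 16.9% CAGACA, 7.71% TGANTCA, 0.202% GTCTAGAC and 1.29% the CArG box. A match describes the letters only, and says nothing about binding in these cells.

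The total counts were 41151570 and 40737819 in HMOX1si1 libraries, 44139523 and 43878825 in HMOX1si2 libraries, and 36144330 and 45068660 in siControl libraries. HMOX1 had 2.43 and 2.80 CPM (counts scaled to a common library total after TMM, a normalization for library composition) in HMOX1si1 libraries, 1.27 and 1.17 CPM in HMOX1si2 libraries, and 9.06 and 8.52 CPM in siControl libraries. It fell by 1.75 on the log2 scale with HMOX1si1 (edgeR adjusted p = 0.00618) and by 2.85 with HMOX1si2 (edgeR adjusted p = 0.00951). It was lower with HMOX1si2 than with HMOX1si1 by a log2 difference of -1.10 (SE 0.17, edgeR adjusted p = 0.0284), a difference that was not past 0.05 when any 1 library was left out (edgeR adjusted p = 0.0789 to 0.141). Its average change was -2.26 without siControl replicate 1 (edgeR adjusted p = 0.0544) and -2.34 without siControl replicate 2 (edgeR adjusted p = 0.0955). Nothing in the labels says that the libraries of a group came from separate cultures, so the spread behind each p-value is that of these libraries and may be technical. The markers of epithelial tumour cells summed to 9503 to 9766 CPM in HMOX1si1 libraries, 13401 to 13690 CPM in HMOX1si2 libraries and 13776 to 15618 CPM in siControl libraries. All 7 markers were present, but CLDN4 differed widely between libraries of a group. It had 257 and 25886 counts with HMOX1si1, 28009 and 6640 with HMOX1si2, and 26766 and 37838 in siControl libraries. Most of that sum came from the keratins KRT8, KRT18 and KRT19, each lower in both HMOX1si1 libraries than in both siControl libraries. EPCAM (651 and 650 CPM beside 663 and 686 CPM) and ELF3 (457 and 425 CPM beside 470 and 512 CPM) were lower by less. CDH1 was higher with HMOX1si1 (111 and 98.5 CPM beside 91.0 and 74.9 CPM). Of 10 markers of fibroblasts and stellate cells, 4 stayed under 10 counts in every library, none was at 0 in all of them, and their sum was 91.9 to 96.3 CPM in HMOX1si1, 79.0 to 87.2 CPM in HMOX1si2 and 120 to 125 CPM in siControl libraries. LUM is 1 of these 10 markers and made up nearly all of that sum, which without LUM was 3.56 to 5.41 CPM over all 6 libraries. Of 5 endothelial markers, TEK was at 0 and the sum was 0.550 to 0.811, 0.691 to 1.37 and 1.17 to 1.71 CPM in HMOX1si1, HMOX1si2 and siControl libraries. Of 5 blood cell markers, CD3E was at 0, and the sum of 139 to 169, 105 to 139 and 97.5 to 103 CPM in the same groups was mostly CD68. The part of these shifts in the results was not tested, and in bulk RNA fewer cells of a type and less RNA per cell cannot be told apart.

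In short, 3 of the 9 genes, THBS1, TNC and LTBP2, were 1.53 to 2.44 times as high with each siRNA as in siControl cells, and LUM was lower with each. CCN1 was higher than in siControl cells with HMOX1si1 and lower with HMOX1si2. CCN2 lay above siControl with each siRNA by a smaller amount, TGFBI lay above it with HMOX1si1 and overlapped with it in HMOX1si2, and FN1 and SPARC were near the limit of detection in all groups.

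**Figure D1:**
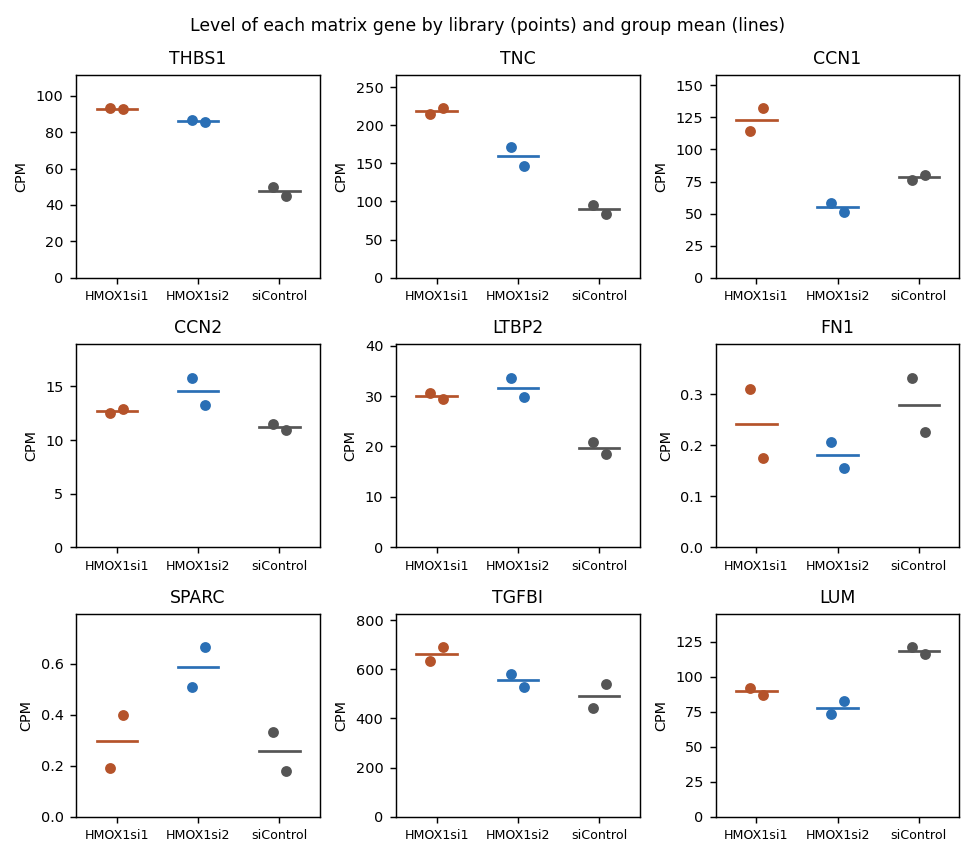
CPM of each of the 9 genes in each library. Points are libraries, lines are group means, and every vertical axis starts at 0. THBS1, TNC, CCN2 and LTBP2 lie above both siControl libraries in all 4 knockdown libraries, LUM lies below both, and CCN1 lies above them with HMOX1si1 and below them with HMOX1si2.

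The levels per length ranged widely between the genes. In siControl cells TGFBI was the highest, with a mean of 62.8 CPM per kb of annotated exon, followed by LUM (39.4), CCN1 (31.9) and TNC (9.28), whose ranges did not overlap. THBS1, at 4.90 to 5.45 CPM per kb, overlapped CCN2, at 4.66 to 4.91, and LTBP2 came next with a mean of 2.16 CPM per kb. SPARC (0.053 CPM per kb) and FN1 (0.0161 CPM per kb) were last. Among the tested genes of siControl cells, the level per length of TGFBI was at percentile 95.4, that of LUM at 92.1, of CCN1 at 90.0, of SPARC at 2.86 and of FN1 at 0.814.

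With HMOX1si1 the order changed at 1 place, because CCN1, with a mean of 50 CPM per kb, stood above LUM, with 29.8. With HMOX1si2 LUM (24.5 to 27.4 CPM per kb) again stood above CCN1 (20.8 to 23.7 CPM per kb), without overlap. The TNC mean was 22.6 CPM per kb with HMOX1si1 and 16.5 with HMOX1si2, below LUM and above THBS1 in both. THBS1, with 10.1 CPM per kb in HMOX1si1 cells and 9.39 in HMOX1si2 cells, stood clear of CCN2, with 5.43 and 6.21. The lengths are those of all annotated exons merged, so a gene that uses few of its exons is understated.

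**Figure D2:**
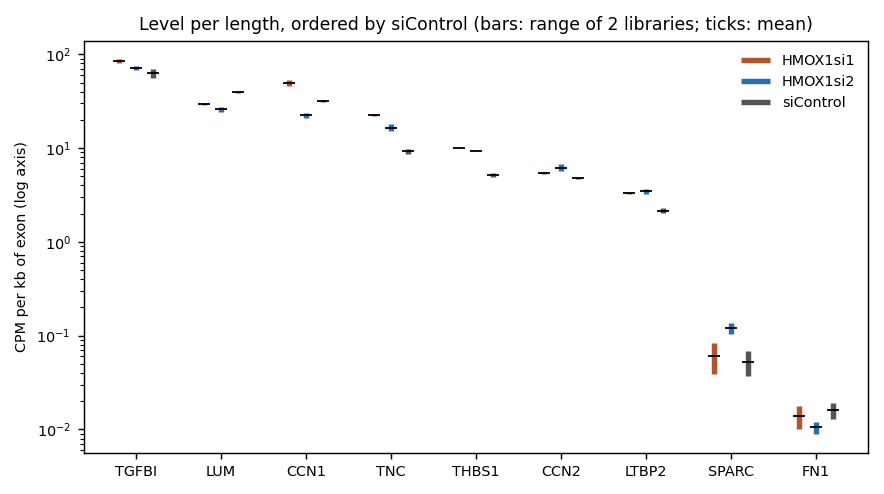
Level per length of the 9 genes, as CPM per kb of annotated exon on a log axis, ordered by the siControl mean. Bars span the 2 libraries of a group and ticks mark the mean; TGFBI is the highest and FN1 the lowest in every group, and CCN1 and LUM change places in HMOX1si1.

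THBS1, which binds CD36 and CD47 on cells and can activate latent TGF-beta, had 93.1 and 92.7 CPM in HMOX1si1 libraries, 86.5 and 85.6 CPM in HMOX1si2 libraries, and 49.9 and 44.9 CPM in siControl libraries. All 4 knockdown libraries were above both siControl libraries, and the libraries of each siRNA lay close together. The log2 fold change was 0.97 (SE 0.09, 95% interval 0.74 to 1.20) with HMOX1si1 and 0.86 (SE 0.09, 0.63 to 1.09) with HMOX1si2, which is 1.96 and 1.82 times the siControl level. The difference of HMOX1si2 minus HMOX1si1 was -0.11 on the log2 scale, with an interval of -0.34 to 0.12.

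TNC, the hexameric glycoprotein tenascin-C of wounds and tumour stroma, had 214 and 222 CPM in HMOX1si1 libraries, 172 and 146 CPM in HMOX1si2 libraries, and 94.9 and 84.0 CPM in siControl libraries. The 3 groups did not overlap, with HMOX1si1 the highest and siControl the lowest. The log2 fold change was 1.29 (SE 0.12, 95% interval 0.99 to 1.58) with HMOX1si1 and 0.83 (SE 0.12, 0.54 to 1.12) with HMOX1si2. The difference of HMOX1si2 minus HMOX1si1 was -0.45 (SE 0.12, interval -0.74 to -0.16).

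LTBP2, an elastic fibre protein that, unlike its relatives, does not bind latent TGF-beta, had 30.7 and 29.4 CPM in HMOX1si1 libraries, 33.6 and 29.8 CPM in HMOX1si2 libraries, and 20.9 and 18.5 CPM in siControl libraries. The siRNA groups overlapped with each other and lay above siControl. Its log2 fold change was 0.61 (SE 0.12, 95% interval 0.32 to 0.90) with HMOX1si1 and 0.69 (SE 0.12, 0.40 to 0.98) with HMOX1si2. Their difference was 0.08, with an interval of -0.21 to 0.36.

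CCN1 and CCN2, formerly CYR61 and CTGF, are integrin-binding immediate-early proteins and standard readouts of YAP and TEAD activity. CCN1 had 114 and 132 CPM in HMOX1si1 libraries, 58.3 and 51.2 CPM in HMOX1si2 libraries, and 76.1 and 80.3 CPM in siControl libraries. The siControl libraries lay between the siRNA groups, with no overlap. The log2 fold change was 0.65 (SE 0.12, 95% interval 0.36 to 0.94) with HMOX1si1 and -0.52 (SE 0.12, -0.80 to -0.23) with HMOX1si2, so that the average of the siRNAs was 0.07 (SE 0.10). CCN1 was lower with HMOX1si2 than with HMOX1si1 by a log2 difference of -1.17 (SE 0.12, interval -1.46 to -0.88), which is 0.445 times the HMOX1si1 level. It was -1.27 without HMOX1si1 replicate 1 and -1.06 without HMOX1si1 replicate 2, and in neither of these fits was it past the adjusted threshold of 0.05.

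CCN2 had 12.5 and 12.9 CPM in HMOX1si1 libraries, 15.8 and 13.3 CPM in HMOX1si2 libraries, and 11.5 and 10.9 CPM in siControl libraries. The groups did not overlap, but the steps between them were small, with a log2 fold change of 0.18 (SE 0.14, 95% interval -0.15 to 0.51) with HMOX1si1 and 0.38 (SE 0.14, 0.05 to 0.71) with HMOX1si2. Unlike in CCN1, the HMOX1si2 libraries were the highest, and the difference between the siRNAs was 0.20 with an interval of -0.13 to 0.53.

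TGFBI, a fasciclin-domain adhesion protein named for its induction by TGF-beta, was the most abundant of the 9 genes. It had 634 and 689 CPM in HMOX1si1 libraries, 583 and 527 CPM in HMOX1si2 libraries, and 442 and 539 CPM in siControl libraries. Both HMOX1si1 libraries were above siControl, whereas the siControl libraries differed between themselves and overlapped with HMOX1si2. The log2 fold change was 0.43 (SE 0.13, 95% interval 0.12 to 0.74) with HMOX1si1 and 0.18 (SE 0.13, -0.13 to 0.49) with HMOX1si2, and the difference between the siRNAs was -0.25 (interval -0.56 to 0.06).

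LUM, a small leucine-rich proteoglycan that organizes collagen fibrils, had 92.1 and 87.3 CPM in HMOX1si1 libraries, 73.6 and 82.4 CPM in HMOX1si2 libraries, and 121 and 116 CPM in siControl libraries. It was the only gene of the 9 with all 4 knockdown libraries below both siControl libraries. Relative to siControl, the log2 fold change was -0.40 (SE 0.10, 95% interval -0.64 to -0.16) with HMOX1si1 and -0.60 (SE 0.10, -0.85 to -0.36) with HMOX1si2, with a difference of -0.20 between them (interval -0.44 to 0.04).

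FN1, the fibronectin gene, had 13 and 7 counts in HMOX1si1 libraries, 9 and 7 counts in HMOX1si2 libraries, and 12 and 10 counts in siControl libraries. SPARC, a collagen-binding matricellular protein, had 8 and 16 counts in HMOX1si1 libraries, 22 and 30 counts in HMOX1si2 libraries, and 12 and 8 counts in siControl libraries. HMOX1si2 had the highest SPARC counts, while in FN1 its libraries overlapped with HMOX1si1. The intervals were wide at these counts. SPARC had a log2 fold change of 0.22 (SE 0.57) with HMOX1si1 and 1.21 (SE 0.54, 95% interval -0.10 to 2.51) with HMOX1si2, and FN1 had -0.18 (SE 0.54) with HMOX1si1 and -0.60 (SE 0.56) with HMOX1si2. The difference between the siRNAs was 0.99 for SPARC (interval -0.29 to 2.26) and -0.42 for FN1 (interval -1.79 to 0.95), and could not be resolved at this depth.

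**Figure D3:**
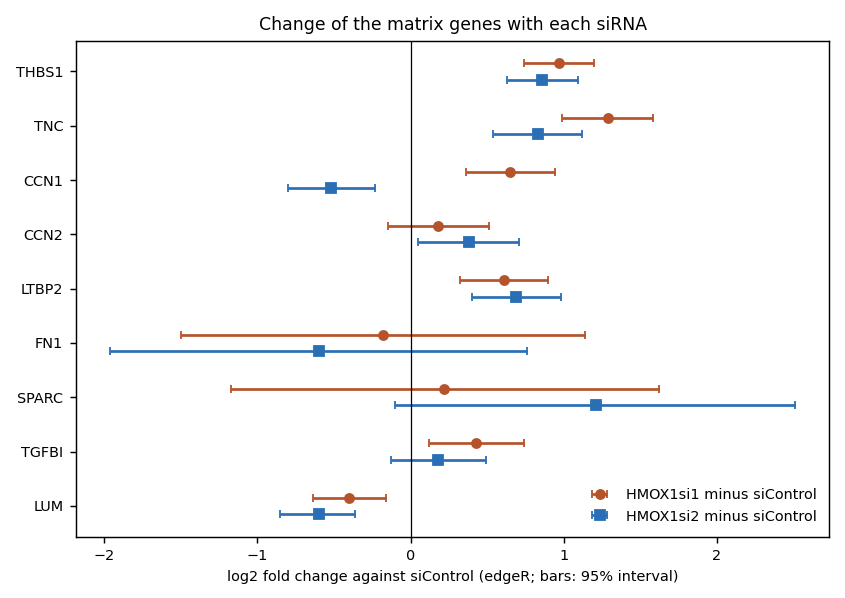
Log2 fold change of each gene against siControl with HMOX1si1 (circles) and HMOX1si2 (squares) from the edgeR fit. Bars are 95% intervals, which lie above 0 with both siRNAs for THBS1, TNC and LTBP2, below 0 with both for LUM, and on opposite sides of 0 for CCN1. They are not adjusted for the number of genes. Of all 13769 genes tested, 4234 had an unadjusted edgeR p under 0.05 with HMOX1si1 and 3560 with HMOX1si2. LUM with HMOX1si1 and CCN1 with HMOX1si2 were not past the adjusted threshold of 0.05 in edgeR, but were past it with DESeq2.

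On average over both siRNAs, 3 of the 9 genes were past the adjusted threshold of 0.05 on the higher side. These were THBS1 at 0.92, TNC at 1.06 and LTBP2 at 0.65 on the log2 scale. On the lower side there was 1, LUM at -0.50. Of all genes tested, 10.1% were past the threshold in either direction. With HMOX1si1, THBS1, TNC, CCN1 and LTBP2 were past it on the higher side and none on the lower. The share of all genes past it in either direction was 10.0%. With HMOX1si2, THBS1, TNC and LTBP2 were past it on the higher side and LUM on the lower. The share of all genes past it in either direction was 5.73%. The genes were chosen with these contrasts known, so nothing is read from the counts. The median log2 fold change of the 9 genes was 0.31 on average, 0.43 with HMOX1si1 and 0.38 with HMOX1si2, beside medians of 0 over all genes tested. Without siControl replicate 1 or replicate 2, edgeR called 0 genes on average of the 14066 and 14039 tested, although 3459 and 2562 had an unadjusted p under 0.05. In the 4 knockdown libraries together, 5 of the 9 genes lay on 1 side of both siControl libraries, 4 above and 1 below, where 36.8% of all tested genes did.

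Between the siRNAs, 1 of the 9 genes, CCN1, was past the same threshold, where 3.62% of all genes tested were, and nothing is read from this count either. The median difference of the 9 genes was -0.20 on the log2 scale, beside 0 over all genes. Both HMOX1si2 libraries lay on 1 side of both HMOX1si1 libraries in 7 of the 9 genes (CCN2 and SPARC above, THBS1, TNC, CCN1, TGFBI and LUM below), where 51.2% of all genes did so. HMOX1 itself was lower with HMOX1si2, and the part of that gap in these differences was not tested.

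To place the 9 genes in their pathway, 13 lists of related genes, 180 genes in all without the 9, were counted in the same fit. All 180 were in the table, 16 had no count in any library and 136 were tested. On average over both siRNAs 10 rose and 8 fell, which is 13.2% of the 136, beside 10.1% of all genes, with a median of 0.05. These lists, too, were chosen with earlier results of these data known, so their shares are a description and nothing about the lists is read from them. With HMOX1si1 9 rose and 7 fell (11.8%), and with HMOX1si2 5 rose and 7 fell (8.82%). Of these genes, 4 passed the test in the same direction with each siRNA: LATS2 rose, while PLAT, MMP15 and LOXL4 fell. The share of all tested genes that did so was not counted, so nothing is read from the 4. Without siControl replicate 1 or replicate 2 none of the 180 passed on average, and without HMOX1si1 replicate 1 or replicate 2 the count was 3 and 2.

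**Figure D4:**
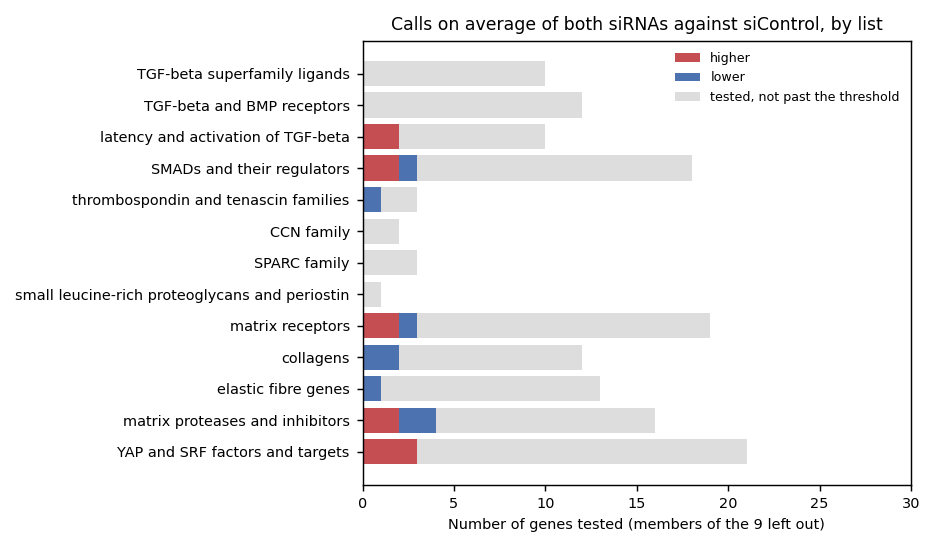
Number of tested genes in each of the 13 lists that were higher, lower or not past the adjusted threshold of 0.05 on average over both siRNAs against siControl. The ligand, TGF-beta and BMP receptor, CCN, SPARC and proteoglycan lists hold no call, and the protease list, with 2 higher and 2 lower, holds the most. MMP14, ITGAV, ITGB6 and ITGB8 each stand in 2 lists.

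None of the 10 tested ligands of the TGF-beta superfamily passed the test on average, where 10.1% of all genes did. TGFB2 had 43.2 and 49.8 CPM in HMOX1si1 libraries, 104 and 81.5 CPM in HMOX1si2 libraries, and 58.7 and 55.0 CPM in siControl libraries, so only the HMOX1si2 libraries were above siControl. It rose with HMOX1si2 (0.70, SE 0.14, edgeR adjusted p = 0.0485), and its average change was 0.21 (edgeR adjusted p = 0.310). TGFB1 averaged 76.4 CPM with HMOX1si1, 83.9 with HMOX1si2 and 65.5 in siControl (edgeR adjusted p = 0.324 on average), and neither TGFB3 (0.40) nor BMP8B (0.55) passed.

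Of 12 tested receptors, which are the kinases and co-receptors of TGF-beta, activins and BMPs, none passed on average, beside 10.1% of all genes. ACVR2B, an activin receptor, rose with HMOX1si1 (0.71, edgeR adjusted p = 0.0353), and ACVR1, a BMP receptor, fell with HMOX1si2 (-0.45, edgeR adjusted p = 0.0496). ACVR1B had an average change of 0.37 (edgeR adjusted p = 0.0519), ACVRL1 of 1.06 (edgeR adjusted p = 0.0586), TGFBR3 of 0.43 (edgeR adjusted p = 0.0901) and ACVR1C of -0.98 (edgeR adjusted p = 0.0959).

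Among 10 genes that hold TGF-beta latent or activate it, 2 rose on average and none fell. LTBP1, which tethers the latent complex to the matrix, had 35.7 and 34.4 CPM in HMOX1si1 libraries, 33.4 and 30.7 CPM in HMOX1si2 libraries, and 24.9 and 23.2 CPM in siControl libraries, with all knockdown libraries above siControl (0.48, SE 0.09, edgeR adjusted p = 0.0310). MMP14, a membrane protease that can release latent TGF-beta, also rose (0.43, SE 0.09, edgeR adjusted p = 0.0419). ITGB6, the beta subunit of an integrin that activates TGF-beta, fell with HMOX1si1 (-0.47, edgeR adjusted p = 0.0387) and averaged 33.2 CPM there, 47.4 CPM with HMOX1si2 and 45.9 CPM in siControl. ITGB8 (0.37, edgeR adjusted p = 0.0957) and ITGAV (-0.48, edgeR adjusted p = 0.142) did not pass.

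Of 18 SMAD genes and SMAD regulators, 2 rose and 1 fell on average (16.7%, beside 10.1% of all genes). PMEPA1, a target gene of TGF-beta that restrains its receptor signal, averaged 700 CPM with HMOX1si1, 761 with HMOX1si2 and 550 in siControl (0.41, SE 0.07, edgeR adjusted p = 0.0294). SKI, a repressor of SMAD transcription, rose (0.48, edgeR adjusted p = 0.0370), and TGIF2 (0.74, edgeR adjusted p = 0.0877) did not pass. SMAD6, an inhibitor of BMP signalling, had 57.8 and 61.0 CPM in HMOX1si1 libraries, 109 and 102 CPM in HMOX1si2 libraries, and 112 and 112 CPM in siControl libraries, and fell on average (-0.50, edgeR adjusted p = 0.0211) and with HMOX1si1 (-0.91, SE 0.09, edgeR adjusted p = 0.00691). SMURF1, a ubiquitin ligase, rose with HMOX1si1 (0.40, edgeR adjusted p = 0.0403), but shares 11.7% of its exons with TRRAP, so its counts are uncertain.

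The relatives of the 9 genes were few and mostly low. THBS2, the closest relative of THBS1, had 98.5 CPM in each HMOX1si1 library, 59.7 and 58.5 CPM in HMOX1si2 libraries, and 121 and 109 CPM in siControl libraries. It fell on average (-0.59, SE 0.08, edgeR adjusted p = 0.0160) and with HMOX1si2 (-0.96, edgeR adjusted p = 0.0134), where THBS1 had 0.92 on average. THBS3 (0.09) and TNXB (0.56, edgeR adjusted p = 0.124) did not pass. In the CCN family, CCN5 held 14 and 0 counts with HMOX1si1, 9 and 5 with HMOX1si2 and 16 and 25 in siControl, and CCN6 had an average change of 0.37 (edgeR adjusted p = 0.332). In the SPARC family, SPOCK1 (1.29, edgeR adjusted p = 0.111), SPOCK2 (0.67) and FSTL1 (-0.02) did not pass. Decorin (DCN), a proteoglycan related to lumican, was the 1 tested gene of its list of 10, with 18 and 31 counts with HMOX1si1, 14 and 9 with HMOX1si2 and 21 and 14 in siControl, and 5 of that list had no count in any library.

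Of 19 matrix receptors, 2 rose and 1 fell on average (15.8%, beside 10.1% of all genes). ITGA6, a laminin-binding integrin subunit, averaged 571 CPM with HMOX1si1, 383 with HMOX1si2 and 299 in siControl (0.64, SE 0.14, edgeR adjusted p = 0.0415). LRP1, an endocytic receptor that also clears thrombospondins, averaged 99.2 CPM with HMOX1si1, 142 with HMOX1si2 and 81.6 in siControl (0.54, SE 0.10, edgeR adjusted p = 0.0330). ANXA2, a membrane protein that binds tenascin-C and plasminogen, fell (-0.59, edgeR adjusted p = 0.0297), though it has near-identical pseudogenes and its counts are uncertain.

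Of 12 tested collagens, 2 fell on average and none rose (16.7%, beside 10.1% of all genes). COL6A1, of the beaded filaments, averaged 102 CPM with HMOX1si1, 167 with HMOX1si2 and 203 in siControl (-0.64, SE 0.10, edgeR adjusted p = 0.0221). COL12A1, which decorates collagen fibrils, averaged 1.02, 1.5 and 3.19 CPM in HMOX1si1, HMOX1si2 and siControl (-1.36, SE 0.26, edgeR adjusted p = 0.0311). COL17A1, a transmembrane collagen of hemidesmosomes, had 872 and 940 CPM in HMOX1si1 libraries, 272 and 258 CPM in HMOX1si2 libraries, and 474 and 420 CPM in siControl libraries. It rose with HMOX1si1 (1.02, edgeR adjusted p = 0.00740) and fell with HMOX1si2 (-0.75, edgeR adjusted p = 0.0230). COL7A1 (-0.65, edgeR adjusted p = 0.0651) and COL1A1 (0.36, edgeR adjusted p = 0.176) did not pass.

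In the list of 13 tested elastic fibre genes, to whose class LTBP2 belongs, LOXL4 fell and none rose (7.69%, beside 10.1% of all genes). LOXL4, a lysyl oxidase that cross-links collagen and elastin, had 15.4 and 14.5 CPM in HMOX1si1 libraries, 18.8 and 19.6 CPM in HMOX1si2 libraries, and 36.2 and 36.6 CPM in siControl libraries (-1.10, SE 0.08, edgeR adjusted p = 0.00727). FBN2 (-0.77), LOX (-1.12) and FBN1 (0.49) did not pass (edgeR adjusted p = 0.147, 0.193 and 0.293).

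Of 16 tested proteases and inhibitors, 2 rose and 2 fell on average. PLAT, the tissue plasminogen activator, had 634 and 680 CPM in HMOX1si1 libraries, 669 and 707 CPM in HMOX1si2 libraries, and 1166 and 1246 CPM in siControl libraries, below siControl in all 4 knockdown libraries (-0.84, SE 0.08, edgeR adjusted p = 0.00757). MMP15, a membrane metalloprotease, fell (-0.56, SE 0.07, edgeR adjusted p = 0.0160), and MMP14, named above, rose. SERPINE2, an inhibitor of thrombin and plasminogen activators, averaged 1352 CPM with HMOX1si1, 1105 with HMOX1si2 and 917 in siControl (0.41, SE 0.09, edgeR adjusted p = 0.0446).

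Of 21 tested YAP and SRF factors and targets, 3 rose on average and none fell (14.3%, beside 10.1% of all genes). The list median was 0.29, and nothing about the list is read from it. LATS2, a kinase that restrains YAP, averaged 47.9 CPM with HMOX1si1, 50.2 with HMOX1si2 and 29.6 in siControl (0.73, SE 0.09, edgeR adjusted p = 0.0141). TEAD4, a DNA-binding partner of YAP, rose (0.47, SE 0.10, edgeR adjusted p = 0.0400), and YAP1 rose with HMOX1si1 (0.46, edgeR adjusted p = 0.0463). WWTR1, the YAP homologue TAZ, had an average change of 0.47 (edgeR adjusted p = 0.0717). ACTA2, smooth muscle actin, rose (0.90, SE 0.18, edgeR adjusted p = 0.0357) at a low level of 3.93, 4.53 and 2.26 CPM in HMOX1si1, HMOX1si2 and siControl, and shares 12.8% of its exons with FAS.

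Of the 136 list genes, 7 differed between the siRNAs (5.15%, beside 3.62% of all genes), 3 higher and 4 lower with HMOX1si2. COL17A1 (-1.77, edgeR adjusted p = 0.00581), MMP1, an interstitial collagenase (-1.13, edgeR adjusted p = 0.0209), and THBS2 (-0.74, edgeR adjusted p = 0.0178) were lower with HMOX1si2. TGFB2 (0.99, edgeR adjusted p = 0.0253), SMAD6 (0.82, edgeR adjusted p = 0.0139) and COL6A1 (0.72, edgeR adjusted p = 0.0351) were higher with HMOX1si2. COL17A1 and MMP1 lay, as CCN1 did, above both siControl libraries with HMOX1si1 and below both with HMOX1si2. Other list genes that were not past the threshold lay the same way. The share of all genes that did so was not counted. The count of 7 was 1 without HMOX1si1 replicate 1 and 1 without HMOX1si1 replicate 2, where COL17A1 alone of the 7 stayed past the threshold. Without HMOX1si2 replicate 1 it was 4.

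**Figure D5:**
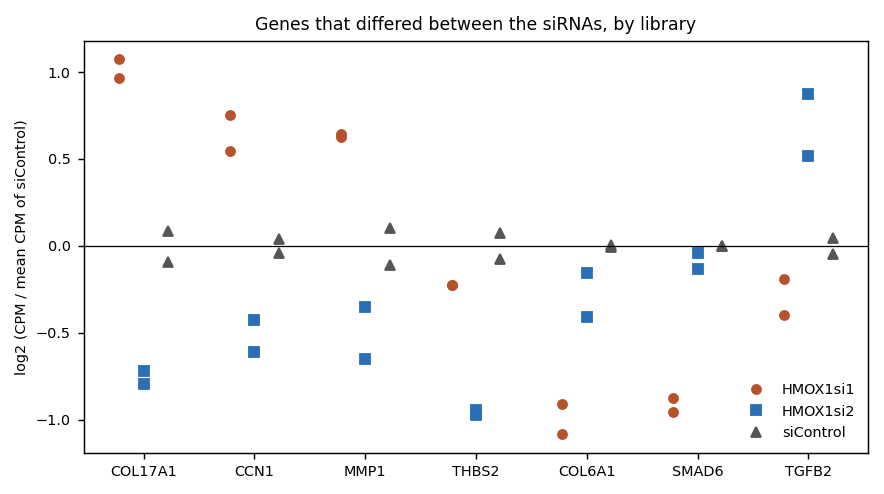
CCN1 and 6 of the 7 list genes that differed between the siRNAs, as log2 of each library's CPM over the siControl mean. The genes were picked by that test, so the gap between circles (HMOX1si1) and squares (HMOX1si2) is a description. COL17A1, CCN1 and MMP1 lie above siControl (triangles) with HMOX1si1 and below it with HMOX1si2.

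The genes whose levels most resembled each of the 7 well-expressed genes were sought by Pearson's r of log2 CPM over the 6 libraries, among 10837 other genes whose log2 CPM averaged 2 or more. Libraries of a group share their siRNA, so r mostly follows the 3 group means, and it is given as a description. THBS1 was most like ZNF138 (0.998), FOXK1 and PLXNA1, TNC was most like PELI2 (0.999), NR4A2 and ZNF395, and LTBP2 was most like NOTCH1 (0.999), SCMH1 and TTC33. CCN1 was most like RNF157 (0.995), CCDC57 and PITPNC1, CCN2 like ACACB (0.992), LRRC37B and PRRC1, TGFBI like RNF220 (0.995), HGS and TGIF1, and LUM like MCL1 (0.996), CA2 and TMEM45B. An r over 0.95 was reached by 303 genes for THBS1, 291 for TNC, 281 for LTBP2, 145 for LUM, 114 for CCN1, 90 for CCN2 and 50 for TGFBI, and none of the likest genes was another of the 9.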

How the data were processed

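RNA-seq libraries were made from AsPC-1 RNA with an mRNA kit, per the labels. The deposited table was taken for a table of expected counts (1 estimated count per gene and library), as no label gives a unit. All its values were whole, so whether they are estimates or plain read counts is not known. How reads were aligned and counted is not given in the sources used here, nor is the use of strand. The submitters' processing notes list GRCm38 and mm10, both mouse builds, although every identifier is human. Even numbers make up 71.9% of the values between 1 and 10 but 49.9% of those over 100, so both mates of a fragment may have been counted. No rounding was needed, since all values were whole. The table has 0 unused columns of values. A symbol was found for 20148 of 20263 genes, and a GENCODE 29 entry, which gave coordinates and exon lengths, for 20224.

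Genes were kept by filterByExpr (minimum count 10), scaled by TMM and fitted over all 6 libraries in edgeR 4.0.16 (glmQLFit and glmQLFTest, R 4.3.3), with Benjamini-Hochberg adjustment over 13769 genes and a threshold of 0.05. Standard errors were taken as the absolute log2 fold change over the root of the F statistic. The script was tested on simulated data. The common biological coefficient of variation was 0.165. The 2 libraries of a group differed by more than sampling noise (chi-square per degree of freedom of 51.2, 88.9 and 40.0 for HMOX1si1, HMOX1si2 and siControl, over genes with at least 20 counts). DESeq2 1.42.0 and limma-voom (limma 3.58.1), other scalings and filters, halved values, a replicate block and leaving out each library were tried.

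The 9 genes and the 13 lists were chosen with earlier results of these data known. The text names the 9 genes, HMOX1, up to 4 genes of each list by the smallest p on average, further list genes past the threshold in a contrast, and the 3 likest genes of each well-expressed member of the 9. A gene of the lists that is counted but not named is not reported here.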

Additional observations from a re-analysis of the deposited data

Results flagged for a closer look

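CCN1 stands out because its response differed between the siRNAs, though it was chosen with both responses known: HMOX1si2 minus HMOX1si1 was -1.17 on the log2 scale, with all libraries of HMOX1si1 above and all of HMOX1si2 below siControl. That order around siControl was also seen in other genes of the lists. In the same fit, COL17A1 (-1.77), MMP1 (-1.13) and THBS2 (-0.74) were lower with HMOX1si2, and TGFB2 (0.99), SMAD6 (0.82) and COL6A1 (0.72) were higher with HMOX1si2. HMOX1 was also lower with HMOX1si2 than with HMOX1si1, and the part of this or of other targets of either siRNA in these differences was not tested. The CCN1 difference was not past the adjusted threshold of 0.05 when either HMOX1si1 library was left out.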

How the results depend on the processing

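Of the 13 calls among the 9 genes over the 4 contrasts, all 13 were kept with library totals in place of TMM, DESeq2, limma-voom, halved values, and a looser or stricter filter, and 6 of 9 with only the groups compared. With 1 library left out, 5 calls were kept without HMOX1si1 replicate 1, 3 without its replicate 2, 9 without HMOX1si2 replicate 1, 11 without its replicate 2, 3 without siControl replicate 1 and 1 without its replicate 2. No call changed sign. The 9 genes were chosen with these contrasts known, so the counts describe the fit and support nothing about the genes. A library left alone in its group is assumed to vary like the other groups. The replicate numbers did not pair the libraries, as the correlation of their deviations was -0.15, 0.01 and 0.03 between the groups, so the replicate block, which kept 5 of the 13 calls, matches libraries by number only.

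The count of the 9 genes called on average (4) was 2 with the block and 0 to 4 with 1 library left out. With HMOX1si1 (4) it was 2 with the block and 0 to 4 with 1 library left out. With HMOX1si2 (4) it was 0 with the block, 1 with only the groups compared, and 0 to 2 with 1 library left out. For the difference (1) it was 2 with DESeq2 and 0 to 1 with 1 library left out.

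Of the list genes, DESeq2 called 29 on average, 28 with HMOX1si1, 27 with HMOX1si2 and 21 in the difference, and the block 3, 8, 0 and 2, in place of 18, 16, 12 and 7. With only the groups compared, 3 were called with HMOX1si2. Leaving out 1 library gave 0 to 18, 0 to 17, 0 to 5 and 1 to 5. Of all genes, DESeq2 called 2674, 2639, 1890 and 1411 and the block 255, 481, 45 and 87, in place of 1389, 1381, 789 and 499. The cause of these gaps was not tested.

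With 1 library left out, uncalled values turned sign in the difference of LTBP2 (-0.01 to 0.16), in FN1 with HMOX1si1 (-0.65 to 0.17) and in the difference (-0.77 to 0.05), and in SPARC with HMOX1si1 (-0.40 to 0.69). Depth limits FN1 and SPARC, at 7 to 30 counts a library.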
